A study of Mus musculus with 12 samples.

Results

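The genes described here are 33 mouse genes of the lysosome: 22 acid hydrolases, 7 membrane proteins, the membrane acetyltransferase Hgsnat, and 3 genes for soluble activator or precursor proteins (Psap, Gm2a and Grn). They were chosen by name, and a gene was kept if its mean over the 12 libraries was 10 or more counts. All 33 were found among the 35275 genes of the count tables, all 33 passed that minimum, and all 33 were among the 12849 genes tested. RNA-seq was done on bone marrow-derived macrophages (BMDMs), which are macrophages grown in culture from marrow cells of wild-type mice. Every culture received M-CSF, the growth factor of macrophages, together with IL-4 and IL-10, a mixture that steers them toward the alternatively activated (M2) state. The vehicle DMSO, the PARP inhibitor olaparib or methyl-nicotinamide (MNA), a methylated product of nicotinamide, was present for 6 days, with 4 libraries in each of the 3 groups. The labels give neither the dose of a compound nor the strain, sex or age of the donors, and they name no sorting step. By the study's methods, differentiation from marrow also took 6 days, so the compounds were present while the macrophages formed. Olaparib and MNA were each set against DMSO, as the design states, and against each other. The 4 DMSO libraries serve both comparisons with DMSO.

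The lysosome is the acidic compartment in which macrophages digest what they engulf. Its soluble hydrolases are made in the endoplasmic reticulum, are mostly tagged with mannose 6-phosphate in the Golgi apparatus, and are carried from there by receptors. Each removes 1 kind of bond from glycolipids, glycosaminoglycans, glycoproteins, glycogen, lipids or proteins, and inherited loss of most of them causes a storage disease. Small activator proteins lift lipids out of the membrane for these enzymes. Heavily glycosylated membrane proteins such as LAMP1 and LAMP2 line the inner face of the compartment and protect it from its own enzymes. Many genes of this system carry an E-box in their promoters and are bound by TFEB, TFE3 and related factors.

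The libraries held 21146291 to 31446849 counts. On the first principal component of all tested genes (49.8% of the variance), MNA replicate 2 stood at -36.0, within the range of the DMSO libraries (-43.7 to -33.6), while MNA replicates 1, 3 and 4 stood at 59.9 to 63.4. Without that library the common dispersion of the fit fell from 0.0333 to 0.0123, so a call of any of the 33 genes that changed without it is also given that way. The 8 macrophage markers looked up (Adgre1, Csf1r and others) were all detected, and their summed level was 3307 to 4684 CPM (counts scaled to library size) in DMSO, 8118 to 9938 CPM with olaparib and 2861 to 6767 CPM with MNA. Of these 8 markers, 4 rose with olaparib and 0 fell. The largest part of the sum was Lyz2, at 1625 to 2532 CPM in DMSO and 5114 to 6559 CPM with olaparib. The olaparib and DMSO ranges overlapped for Mrc1 (468 to 685 and 548 to 829 CPM), Cd14 (34.7 to 54.8 and 36.4 to 49.7 CPM) and Fcgr1 (0.747 to 2.30 and 0.563 to 1.24 CPM). The 8 osteoclast markers, of which Acp5 is also on the list of other lysosomal hydrolases, summed to 1045 to 1261 CPM in DMSO, 1551 to 1796 CPM with olaparib and 987 to 1936 CPM with MNA. MNA replicate 2 held the lowest MNA value of both sums. The osteoclast markers did not all move one way: Ocstamp was at 115 to 244 CPM in DMSO and 390.1 to 418 CPM with olaparib, and Ctsk at 267 to 381 CPM in DMSO, 148 to 233 CPM with olaparib and 9.58 to 187 CPM with MNA. The neutrophil list summed to at most 10.7 CPM in DMSO, 3.93 CPM with olaparib and 69.2 CPM with MNA. Erythroid markers reached at most 4.03, 0.337 and 56.1 CPM in the same order, with Hba-a2 at 0 counts in every library. The dendritic cell list lay between 18.1 and 27.1 CPM throughout, and the lists for B cells, for stromal cells, and for basophils, mast cells and eosinophils stayed at or under 6.83 CPM. The part of these other cell types in the results below was not tested.

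The 33 genes differed widely in level. Per kilobase of exon, Psap, which encodes the precursor of 4 saposins, was the highest at a mean of 8899 RPKM in DMSO, followed by Cd68 (977 RPKM), Lamp1 (848 RPKM), Grn (584 RPKM), Cd63 (386 RPKM) and Hexa (330.5 RPKM). Arsb (5.49 RPKM) and Hgsnat (5.94 RPKM) were the lowest. Psap alone supplied 57.6% to 62.6% of the summed CPM of the 33 genes in each library. Replicates lay close together: the coefficient of variation across 4 libraries had a median over the 33 genes of 6.21% in DMSO and 6.62% with olaparib. With MNA the median was 12.1%, and 5.21% without replicate 2. Manba varied least in DMSO (1.87%) and with olaparib (1.53%). MNA replicate 2 lay inside the range of the 4 DMSO libraries for 25 of the 33 genes (75.8%) and for 67.4% of all tested genes. For MNA replicates 1, 3 and 4 the share of all tested genes inside was 23.8% to 25.4%.

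**Figure D1:**
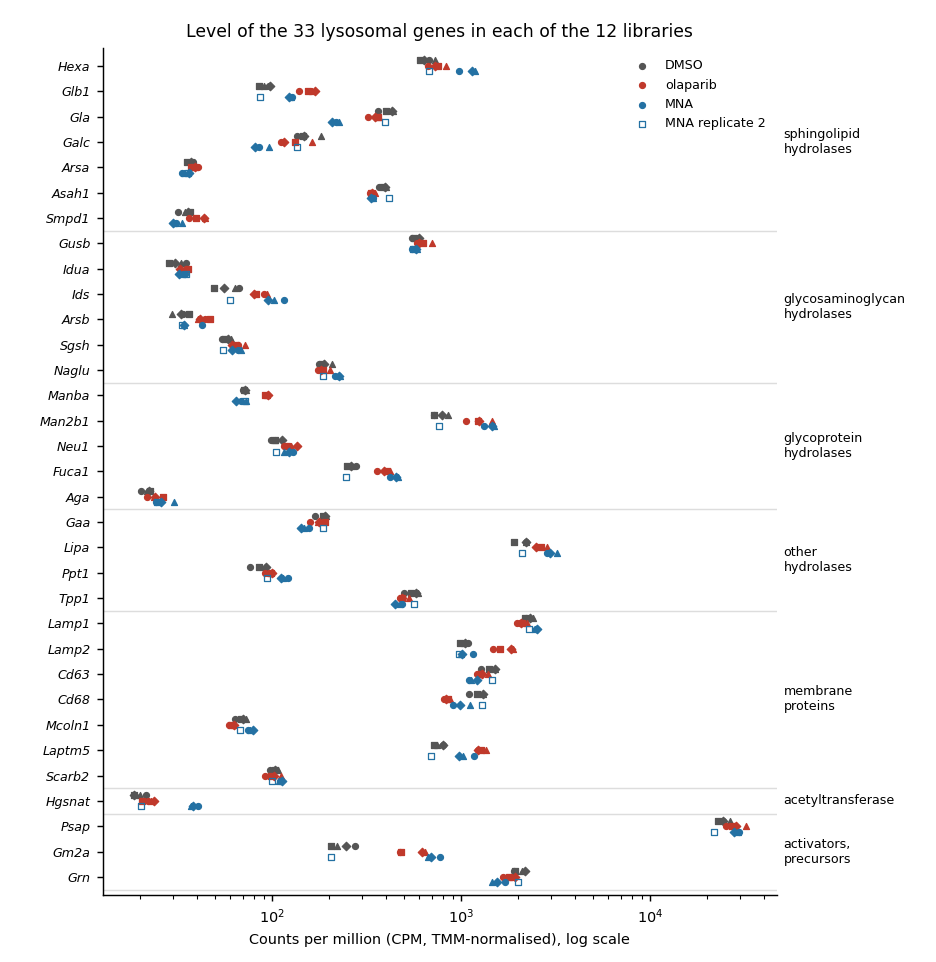
Level of each of the 33 genes in the 12 libraries, in CPM on a log scale, with 1 marker shape per replicate number and 1 colour per group (DMSO grey, olaparib red, MNA blue); the open square is MNA replicate 2. It lies inside the DMSO range for 25 of the 33 genes, and Psap sits far to the right of all others.

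RefSeq promoters, from 250 bases before to 50 bases after the start site (GRCm38.p6), were at hand for 30 of the 33 genes, and not for Asah1, Aga and Hgsnat. They were searched for the E-box letters CACGTG and for the longer TCACGTGA, which contains it. Both read the same on either strand, and CACGTG is also recognised by other factors such as MYC and USF1. CACGTG was present in 8 of the 30 promoters (26.7%; Glb1, Gla, Arsa, Sgsh, Naglu, Gaa, Lamp1 and Mcoln1), against 2187 of 27025 genes (8.09%) over the whole table and 20 of 73 (27.4%) of the other lysosomal genes listed. TCACGTGA was present in 2 of the 30 (Gla and Mcoln1), against 304 of 27025 (1.12%) over the whole table and 13 of 73 (17.8%) of the other lysosomal genes. The stretches that follow are those of the 4 genes that both hold these letters and passed the test in at least 1 comparison. They are written 5′ to 3′ on the strand of the gene, with CACGTG or TCACGTGA in capitals. Glb1 lies on chromosome 9 (114401010 to 114401055, plus strand), Gla on chromosome X (134601173 to 134601253, minus strand), and Lamp1 (13159080 to 13159160, plus strand) and Mcoln1 (3500428 to 3500486, plus strand) on chromosome 8.
Glb1: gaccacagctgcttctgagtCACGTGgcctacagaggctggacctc
Gla: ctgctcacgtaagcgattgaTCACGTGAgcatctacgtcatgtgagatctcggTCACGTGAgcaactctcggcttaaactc
Lamp1: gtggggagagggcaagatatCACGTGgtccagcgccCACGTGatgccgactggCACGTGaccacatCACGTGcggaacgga
Mcoln1: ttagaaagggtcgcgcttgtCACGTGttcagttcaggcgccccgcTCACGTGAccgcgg
The Lamp1 stretch holds 4 matches within 61 bases of the start site, and both Gla matches have the longer form. A match is a string of letters and not a shown binding site. As the next paragraphs give, Glb1 rose with olaparib and Gla fell with MNA, each against DMSO. In the direct comparison of the compounds, Glb1 was higher and Lamp1 and Mcoln1 were lower with olaparib than with MNA. Gla did not pass there on all 12 libraries, and the genes that passed did not share a direction.

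With olaparib, 11 of the 33 genes rose and 1 fell (edgeR quasi-likelihood test, Benjamini-Hochberg adjusted p under 0.05 over all tested genes), where 14.3% of all tested genes rose and 12.8% fell. The 11 were Gm2a, Lamp2, Laptm5, Glb1, Smpd1, Ids, Arsb, Manba, Man2b1, Neu1 and Fuca1, and the gene that fell was Cd68. With MNA, 9 rose (Gm2a, Hgsnat, Man2b1, Ids, Fuca1, Hexa, Lipa, Ppt1 and Aga; 16.3% of all tested genes) and 2 fell (Gla and Galc; 12.3%). Gm2a, Man2b1, Fuca1 and Ids rose with both. The median log2 fold change over the 33 genes was 0.16 with olaparib and 0.11 with MNA, and over all tested genes it was 0.0038 and 0.00020. In bulk RNA, fewer cells of a type and less RNA per cell cannot be told apart.

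Without MNA replicate 2, 15 genes rose and 4 fell with olaparib (22.5% and 21.2% of all tested genes), and 16 rose and 8 fell with MNA (27.2% and 26.9%). Every call made on all 12 libraries held without it. That library was singled out from these same data because it lies with the DMSO libraries. Leaving it out therefore favours larger MNA differences and smaller p-values, so calls that held or were added without it are no independent support. The olaparib count went down to 7 genes higher without DMSO replicate 2 or without olaparib replicate 3. Over all tested genes these fits called 1270 and 1343 higher, against 1834 on all 12 libraries. A total of 2 of the 33 genes were lower without DMSO replicate 1, where 1418 of all tested genes were. The MNA counts depended more on single libraries, and so did those over all tested genes (2093 higher and 1580 lower on all 12 libraries). Omitting DMSO replicate 2 left 2 of the 33 higher and 0 lower (925 and 423 of all tested genes). DMSO replicate 3 left 6 and 0 (924 and 310), and DMSO replicate 4 left 6 and 1 (1200 and 520). MNA replicate 1 left 1 and 0 (693 and 155). MNA replicate 3 left 0 and 0 (408 and 55), and so did MNA replicate 4 (444 and 59). In the edgeR fits that called none of the 33 higher, 11 were higher at an unadjusted p under 0.05, and in those that called none lower, 2 to 4 were lower. DESeq2 on all 12 libraries called 11 higher and 3 lower with MNA. Where a gene is said below to have passed only without MNA replicate 2, this is among the fits on all 12 and on any 11 libraries without a replicate block. The plot of fold changes shows both comparisons gene by gene.

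**Figure D2:**
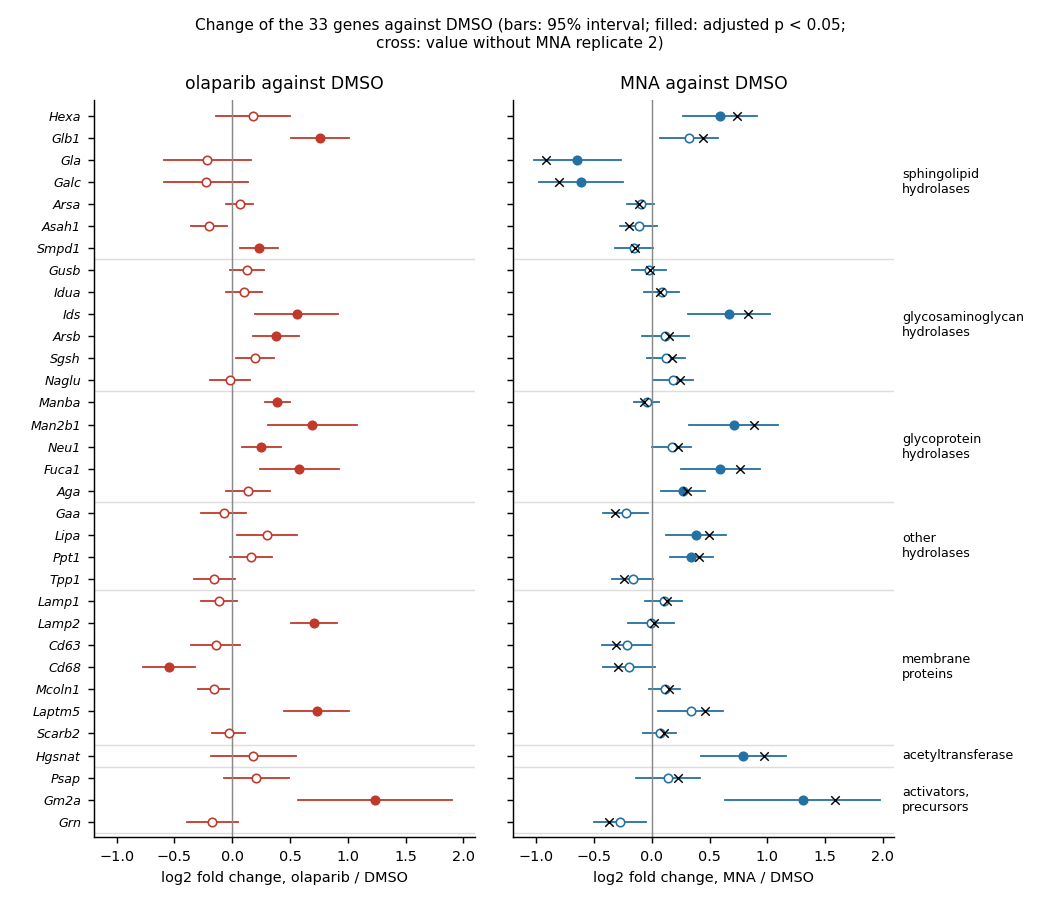
log2 fold change of each gene with olaparib (left, red) and with MNA (right, blue) against DMSO, with 95% intervals; filled points passed the test on all 12 libraries and crosses give the MNA value without replicate 2. Filled points on the left are 11 above 0 and 1 below (Cd68), and on the right 9 above and 2 below (Gla and Galc).

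Among the 7 hydrolases of sphingolipids, 2 rose with olaparib and none fell, and 1 rose and 2 fell with MNA. The counts of this and the following classes stand beside the shares of all tested genes. Those were 14.3% higher and 12.8% lower with olaparib, and 16.3% and 12.3% with MNA. At an unadjusted p under 0.05, 1 further gene (Asah1) was lower with olaparib, which DESeq2 also called. Glb1, the β-galactosidase that acts on GM1 ganglioside, read 96.1, 85.02, 90.1 and 97.3 CPM in DMSO replicates 1 to 4, 138, 155, 163 and 167 CPM with olaparib and 127, 85.7, 126 and 123 CPM with MNA. All olaparib libraries lay above all DMSO libraries, and so did MNA replicates 1, 3 and 4. Glb1 rose with olaparib (log2 fold change 0.76, SE 0.12, adjusted p = 0.0011). Its MNA change did not pass on all 12 libraries (log2 fold change 0.32, SE 0.11, adjusted p = 0.0515) and passed without MNA replicate 2 (log2 fold change 0.44, SE 0.071, adjusted p = 0.000142). Smpd1, acid sphingomyelinase, read 31.9, 36.9, 34.4 and 35.7 CPM in DMSO, 36.1, 39.4, 44.3 and 43.4 CPM with olaparib and 30.9, 30.6, 33.4 and 29.96 CPM with MNA. The olaparib and DMSO values overlapped by 1 library on each side. Smpd1 rose with olaparib by a small step (log2 fold change 0.23, SE 0.076, adjusted p = 0.0412), and this call was lost when any 1 of DMSO replicates 1, 2, 3 and 4 and olaparib replicates 2, 3 and 4 was left out (adjusted p = 0.0527 to 0.115).

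Hexa, the alpha subunit of β-hexosaminidase, read 672, 606, 724 and 637 CPM in DMSO, 669.6, 757, 830.2 and 727 CPM with olaparib and 975, 675, 1185 and 1141 CPM with MNA. MNA replicates 1, 3 and 4 stood above every other library, and replicate 2 stood among the DMSO values. Hexa rose with MNA (log2 fold change 0.59, SE 0.15, adjusted p = 0.0198; without MNA replicate 2, 0.74, SE 0.087, adjusted p = 8.74e-06). The call was lost without any 1 of DMSO replicate 2 and MNA replicates 1, 3 and 4 (adjusted p = 0.0518 to 0.0658). Of its exonic bases, 12.8% overlap Tmem202 on the opposite strand, a gene whose reads could be told apart only by a strand setting that is not given in the sources used here.

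Gla, α-galactosidase A, went the other way. It read 362, 398, 437 and 432 CPM in DMSO, 323, 364, 367 and 348 CPM with olaparib and 217, 393, 225 and 207 CPM with MNA. MNA replicates 1, 3 and 4 stood below all other libraries, while replicate 2 was inside the DMSO range. Gla fell with MNA (log2 fold change -0.64, SE 0.17, adjusted p = 0.0232; without MNA replicate 2, -0.91, SE 0.075, adjusted p = 2.79e-07), and the call was lost without any 1 of DMSO replicates 2, 3 and 4 and MNA replicates 1, 3 and 4 (adjusted p = 0.0524 to 0.0746). Galc, galactosylceramidase, read 135, 146, 181 and 148 CPM in DMSO, 112, 131, 163 and 115 CPM with olaparib and 85.4, 136, 96.7 and 80.7 CPM with MNA. It showed the same arrangement of MNA libraries and fell as well (log2 fold change -0.61, SE 0.17, adjusted p = 0.0244; without MNA replicate 2, -0.80, SE 0.13, adjusted p = 0.000143). Leaving out any 1 of DMSO replicates 2 and 3 and MNA replicates 1, 3 and 4 ended that call (adjusted p = 0.0524 to 0.0772). With olaparib, Gla passed only without MNA replicate 2 (log2 fold change -0.22, SE 0.068, adjusted p = 0.0183), and Galc did not (log2 fold change -0.23, SE 0.17, adjusted p = 0.33 on all libraries). With the replicate number as a block as well, and without MNA replicate 2, Galc was lower with olaparib (adjusted p = 0.00664), and Hexa passed as higher (adjusted p = 0.0328). Asah1, acid ceramidase, was lower in all 4 olaparib libraries (328 to 348 CPM) than in DMSO (369 to 398 CPM), but did not pass on all 12 libraries (log2 fold change -0.20, SE 0.073, adjusted p = 0.0589). It passed without MNA replicate 2 with olaparib (adjusted p = 0.00342) and with MNA (adjusted p = 0.0054). Arsa, arylsulfatase A, ranged from 33.5 to 40.7 CPM over all libraries, and 18.8% of its exonic bases overlap C230037L18Rik on the opposite strand.

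Of the 6 hydrolases of glycosaminoglycans, 2 rose with olaparib and 1 with MNA, and none fell with either by edgeR, by DESeq2 or at an unadjusted p under 0.05. Ids, iduronate 2-sulfatase, read 66.4, 49.3, 63.2 and 55.8 CPM in DMSO, 90.4, 81.6, 93.7 and 80.1 CPM with olaparib and 116, 60.1, 103 and 94.7 CPM with MNA. Olaparib and DMSO did not overlap, and MNA replicate 2 was the single MNA library in the DMSO range. Ids rose with olaparib (log2 fold change 0.56, SE 0.16, adjusted p = 0.0268), a call lost without any 1 of DMSO replicates 2 and 4 and olaparib replicates 1 and 3 (adjusted p = 0.0586 to 0.0779). It rose with MNA (log2 fold change 0.67, SE 0.16, adjusted p = 0.0192; without MNA replicate 2, 0.83, SE 0.10, adjusted p = 8.51e-06), lost without any 1 of DMSO replicate 2 and MNA replicates 1, 3 and 4 (adjusted p = 0.0521 to 0.0606). Arsb, arylsulfatase B, read 33.8, 36.4, 29.4 and 32.9 CPM in DMSO, 43.98, 46.6, 40.3 and 41.2 CPM with olaparib and 42.4, 33.2, 34.1 and 34.1 CPM with MNA. Each olaparib library exceeded each DMSO library, and among MNA libraries replicate 1 stood apart. Arsb rose with olaparib (log2 fold change 0.38, SE 0.092, adjusted p = 0.0122). Of its exonic bases, 39.9% overlap Gm26527 on the opposite strand, so its counts are uncertain in the same way as those of Hexa.

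Gusb, β-glucuronidase, had the highest CPM of this class and did not pass in any comparison. It read 549.8, 562, 578 and 601 CPM in DMSO, 582, 627, 697 and 599.9 CPM with olaparib and 548, 553, 581 and 578 CPM with MNA. The 95% interval of its log2 fold change was -0.017 to 0.28 with olaparib and -0.17 to 0.13 with MNA. Sgsh, the heparan sulfatase N-sulfoglucosamine sulfohydrolase, was higher in every olaparib library (61.0 to 71.4 CPM) than in every DMSO library (54.0 to 60.4 CPM), but passed only without MNA replicate 2, with olaparib (adjusted p = 0.0178) and with MNA (adjusted p = 0.0305). Of its exonic bases, 21.6% overlap Card14 on the opposite strand. Naglu, α-N-acetylglucosaminidase, passed against DMSO with MNA alone, and only without replicate 2 (log2 fold change 0.24, SE 0.068, adjusted p = 0.00801). Idua, α-L-iduronidase, ranged from 28.5 to 35.7 CPM.

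The 5 hydrolases of glycoproteins, which take N-linked sugar chains apart, had the highest share of calls of the 4 hydrolase classes with either compound. With olaparib 4 rose and with MNA 3, where 14.3% and 16.3% of all tested genes rose. None fell by edgeR, by DESeq2 or at an unadjusted p under 0.05. The classes hold only 4 to 7 genes, and this ranking was not tested. The olaparib calls of Neu1 and Fuca1 and every MNA call of the class were lost without some single library. Their median log2 fold change was 0.39 with olaparib and 0.27 with MNA. Manba, β-mannosidase, read 70.04, 70.6, 72.98 and 72.03 CPM in DMSO, 93.7, 91.6, 94.4 and 94.8 CPM with olaparib and 68.5, 71.6, 72.4 and 64.3 CPM with MNA. The 4 olaparib libraries lay close together above the rest, and MNA and DMSO overlapped. Manba rose with olaparib alone (log2 fold change 0.39, SE 0.05, adjusted p = 0.000404; with MNA, log2 fold change -0.045, SE 0.05, adjusted p = 0.501). Man2b1, lysosomal α-mannosidase, read 718, 719.8, 849 and 789.6 CPM in DMSO, 1057, 1222, 1449 and 1249 CPM with olaparib and 1326, 767, 1495 and 1448 CPM with MNA. Here both compounds stood above DMSO, except MNA replicate 2. Man2b1 rose with olaparib (log2 fold change 0.69, SE 0.18, adjusted p = 0.0147) and with MNA (log2 fold change 0.71, SE 0.18, adjusted p = 0.0197; without MNA replicate 2, 0.89, SE 0.094, adjusted p = 3.36e-06). The MNA call was lost without any 1 of DMSO replicate 2 and MNA replicates 1, 3 and 4 (adjusted p = 0.0515 to 0.0646).

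Fuca1, α-L-fucosidase, read 277, 249, 264 and 260.1 CPM in DMSO, 357, 404, 421 and 388 CPM with olaparib and 419.8, 246, 465 and 450.2 CPM with MNA. Apart from MNA replicate 2, the lowest of all 12, the treated libraries were all above DMSO. It rose with olaparib (log2 fold change 0.58, SE 0.16, adjusted p = 0.0188) and with MNA (log2 fold change 0.59, SE 0.16, adjusted p = 0.0224; without MNA replicate 2, 0.76, SE 0.066, adjusted p = 4.74e-07). The first call was lost without either DMSO replicate 2 or olaparib replicate 3 (adjusted p = 0.0503 to 0.0529) and the second without any 1 of DMSO replicates 2, 3 and 4 and MNA replicates 1, 3 and 4 (adjusted p = 0.0517 to 0.0724). Neu1, the sialidase that also belongs to a complex with β-galactosidase and cathepsin A, read 97.98, 104, 103 and 113 CPM in DMSO, 115, 120.4, 126 and 136 CPM with olaparib and 129, 104, 115 and 123 CPM with MNA. Its olaparib and DMSO ranges were adjacent without overlap. Neu1 rose with olaparib (log2 fold change 0.25, SE 0.078, adjusted p = 0.0318), which was lost without any 1 of DMSO replicates 1, 2 and 3 and olaparib replicates 2, 3 and 4 (adjusted p = 0.0554 to 0.0957), and with MNA it passed only without replicate 2 (log2 fold change 0.23, SE 0.07, adjusted p = 0.0143). Aga, aspartylglucosaminidase, was the gene with the lowest CPM of the class, at 20.2, 22.6, 21.8 and 22.2 CPM in DMSO, 21.7, 26.4, 23.6 and 23.9 CPM with olaparib and 24.3, 24.5, 30.4 and 25.7 CPM with MNA. All 4 MNA libraries, replicate 2 included, lay above DMSO. It rose with MNA (log2 fold change 0.27, SE 0.087, adjusted p = 0.0376), and the call ended when the fit omitted any 1 of DMSO replicates 1, 2, 3 and 4, MNA replicates 1, 3 and 4 and olaparib replicate 3 (adjusted p = 0.0526 to 0.105).

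Among the 4 hydrolases of glycogen, neutral lipids or proteins, none passed with olaparib in the edgeR fit, while 1 had an unadjusted p under 0.05 and DESeq2 called 1, and 2 rose with MNA. Lipa, lysosomal acid lipase, which releases cholesterol and fatty acids from lipoprotein lipids, read 2201, 1900.5, 2196 and 2197 CPM in DMSO, 2523, 2627, 2839 and 2475 CPM with olaparib and 2841, 2088, 3225 and 2932 CPM with MNA. The olaparib libraries lay above the DMSO libraries without overlap, and DMSO replicate 2 was low. With olaparib it did not pass on all 12 libraries (log2 fold change 0.30, SE 0.12, adjusted p = 0.0808), and it passed with the replicate number as a block (adjusted p = 0.0493) and without MNA replicate 2 (adjusted p = 0.00272). Lipa rose with MNA (log2 fold change 0.38, SE 0.12, adjusted p = 0.0354; without MNA replicate 2, 0.50, SE 0.072, adjusted p = 5.64e-05), and the call was lost without any 1 of DMSO replicates 1, 2, 3 and 4 and MNA replicates 1, 3 and 4 (adjusted p = 0.0537 to 0.102). Ppt1, palmitoyl-protein thioesterase, read 76.2, 85.3, 91.9 and 93.2 CPM in DMSO, 91.3, 99.1, 97.8 and 99.98 CPM with olaparib and 121, 93.8, 114 and 111 CPM with MNA. MNA replicate 2 stood just above the highest DMSO library. Ppt1 rose with MNA (log2 fold change 0.34, SE 0.084, adjusted p = 0.0192; without MNA replicate 2, 0.41, SE 0.07, adjusted p = 0.00022), lost without any 1 of DMSO replicate 2 and MNA replicates 1, 3 and 4 (adjusted p = 0.0501 to 0.0601). Gaa, acid α-glucosidase, and Tpp1, tripeptidyl peptidase, had negative values with MNA that passed only without replicate 2 (log2 fold change -0.32, SE 0.071, adjusted p = 0.00197 and -0.24, SE 0.067, adjusted p = 0.0086). With olaparib, Tpp1 passed as lower with the replicate block and without MNA replicate 2 (adjusted p = 0.0356).

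Of the 7 membrane proteins, 2 rose and 1 fell with olaparib, where 14.3% of all tested genes rose and 12.8% fell. With MNA none passed on all 12 libraries (edgeR; 1 higher and 1 lower at an unadjusted p under 0.05, and 1 higher by DESeq2), where 16.3% rose and 12.3% fell. With 7 genes, these counts are not read as a trait of the class. Lamp2, whose isoforms include the receptor of chaperone-mediated autophagy, read 1092, 979, 1030.0 and 1052 CPM in DMSO, 1467, 1602, 1881 and 1830.0 CPM with olaparib and 1156, 976, 1000.3 and 1006 CPM with MNA. The olaparib libraries stood well above the rest, and MNA and DMSO overlapped. Lamp2 rose with olaparib (log2 fold change 0.71, SE 0.092, adjusted p = 0.000438), and with MNA its 95% interval was -0.20 to 0.19. Laptm5, a transmembrane protein of blood cell lysosomes, read 798, 713, 742 and 798 CPM in DMSO, 1219.7, 1267, 1354 and 1221 CPM with olaparib and 1173, 691, 1017 and 972 CPM with MNA. It rose with olaparib (log2 fold change 0.73, SE 0.13, adjusted p = 0.00251), and with MNA it passed only without replicate 2 (log2 fold change 0.46, SE 0.072, adjusted p = 0.000103). Cd68, a macrophage glycoprotein of the LAMP family, read 1095, 1205, 1309 and 1302 CPM in DMSO, 813, 848, 869 and 828 CPM with olaparib and 903, 1285, 1117 and 989 CPM with MNA. All olaparib libraries lay below all DMSO libraries. Cd68 fell with olaparib (log2 fold change -0.55, SE 0.10, adjusted p = 0.00353). The summed macrophage marker list, which does not hold Cd68 and is led by Lyz2, was higher there than in DMSO, though not every marker on it was. With MNA, Cd68 passed only without replicate 2 (log2 fold change -0.29, SE 0.079, adjusted p = 0.00647).

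Lamp1, the membrane protein with the highest CPM, read 2203, 2172, 2401 and 2298 CPM in DMSO, 1965, 2097, 2236 and 2076 CPM with olaparib and 2487, 2278, 2456 and 2517 CPM with MNA. Of its exonic bases, 9.31% overlap Grtp1 on the opposite strand. Neither change against DMSO passed: the 95% interval was -0.27 to 0.041 with olaparib and -0.055 to 0.26 with MNA. Mcoln1, the calcium channel of the lysosome (TRPML1), read 63.6, 68.02, 72.4 and 70.3 CPM in DMSO, 59.3, 60.6, 62.9 and 62.5 CPM with olaparib and 74.2, 67.6, 75.8 and 78.9 CPM with MNA. All olaparib libraries were below all DMSO libraries (log2 fold change -0.16, SE 0.061, adjusted p = 0.0673), and the change passed without DMSO replicate 1 or without MNA replicate 2. Without MNA replicate 2, Mcoln1 was the 1 gene of the 33 that fell with olaparib (adjusted p = 0.017) and rose with MNA (log2 fold change 0.15, SE 0.054, adjusted p = 0.0285). Cd63, a tetraspanin that also shares 15.9% of its 31-base words with other genes, mainly its pseudogene, passed with MNA only without replicate 2 (log2 fold change -0.31, SE 0.072, adjusted p = 0.00235), and with olaparib only with the replicate block and without MNA replicate 2 (adjusted p = 0.047). Scarb2, the receptor that carries β-glucocerebrosidase, ranged from 91.9 to 113 CPM.

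Hgsnat, the acetyltransferase of the lysosomal membrane that prepares heparan sulfate for further digestion, read 21.4, 18.5, 19.97 and 18.7 CPM in DMSO, 21.9, 20.5, 22.97 and 23.5 CPM with olaparib and 40.5, 20.3, 37.1 and 38.1 CPM with MNA. MNA replicates 1, 3 and 4 stood far above the other 9 libraries. Hgsnat rose with MNA (log2 fold change 0.79, SE 0.17, adjusted p = 0.0144; without MNA replicate 2, 0.97, SE 0.073, adjusted p = 1.2e-07), a call lost without either MNA replicate 3 or MNA replicate 4 (adjusted p = 0.0501 to 0.0512). With olaparib it passed only without MNA replicate 2, by a smaller step (log2 fold change 0.18, SE 0.069, adjusted p = 0.0472). Gm2a, the activator that presents GM2 ganglioside to β-hexosaminidase, had the largest log2 fold change of the 33 genes with either compound on all 12 libraries. It read 273, 205, 220.4 and 245 CPM in DMSO, 473, 482, 641 and 622 CPM with olaparib and 769, 206, 664 and 696 CPM with MNA. Treated libraries stood above every DMSO library, except MNA replicate 2, which was at the bottom of the DMSO range. Gm2a rose with olaparib (log2 fold change 1.23, SE 0.31, adjusted p = 0.0132) and with MNA (log2 fold change 1.31, SE 0.31, adjusted p = 0.0172; without MNA replicate 2, 1.59, SE 0.12, adjusted p = 1.3e-07), and the MNA call was lost without any 1 of MNA replicates 1, 3 and 4 (adjusted p = 0.0538 to 0.056).

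Psap read 24125, 22922, 26360.4 and 24265 CPM in DMSO, 25015, 27225, 32201 and 28319.5 CPM with olaparib and 29444, 21613, 28999.6 and 27648 CPM with MNA. The groups overlapped, and Psap passed only without MNA replicate 2, with olaparib (log2 fold change 0.21, SE 0.075, adjusted p = 0.0393) and with MNA (0.23, SE 0.081, adjusted p = 0.0262). Grn, the progranulin precursor, had negative values with both compounds and passed with MNA without replicate 2 (log2 fold change -0.37, SE 0.075, adjusted p = 0.000808).

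**Figure D3:**
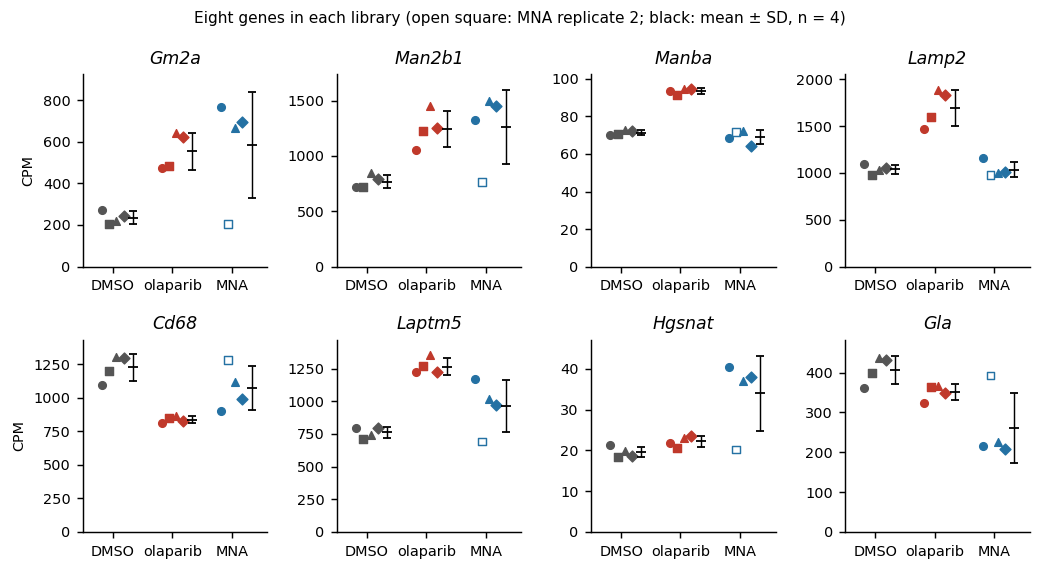
Level in CPM of 8 genes in each library, with DMSO in grey, olaparib in red and MNA in blue, 1 marker shape per replicate number, and the mean ± SD (n = 4) in black. Manba and Lamp2 are high in olaparib alone, Hgsnat is high and Gla low in MNA replicates 1, 3 and 4, and the open square of MNA replicate 2 stays near DMSO.

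The rule by which the genes were chosen asks for hydrolases to be set against membrane proteins. With olaparib, 8 of 22 hydrolases rose and none fell (1 lower at an unadjusted p under 0.05 in edgeR and 1 called lower by DESeq2), with a median log2 fold change of 0.17, where 14.3% of all tested genes rose and 12.8% fell. For the 7 membrane proteins, with their 2 up and 1 down, it was -0.12. With MNA, 7 hydrolases rose and 2 fell, with a median of 0.12, where 16.3% of all tested genes rose and 12.3% fell, and the membrane protein median was 0.067. Without MNA replicate 2 the hydrolase counts became 10 up and 2 down with olaparib and 11 and 5 with MNA, and those of the membrane proteins 2 and 2 with either compound. The olaparib hydrolase count was 4 up without DMSO replicate 2 or olaparib replicate 3. The MNA hydrolase counts were 4 and 0 without DMSO replicate 3, 4 and 1 without DMSO replicate 4, and 0 and 0 without DMSO replicate 2, MNA replicate 1, MNA replicate 3 or MNA replicate 4. The calls over all tested genes also fell in these fits, as given above. In each library the median log2 difference from the DMSO mean was also taken over each class. The hydrolase value minus the membrane protein value was 0.00032, -0.0030, -0.029 and -0.0032 in the DMSO libraries, 0.31, 0.30, 0.30 and 0.27 with olaparib, and 0.061, 0.018, 0.031 and -0.069 with MNA. The olaparib libraries lay apart from both other groups, and MNA and DMSO overlapped. In every olaparib library the hydrolase median was above 0 (0.10 to 0.28) and the membrane protein median below it (-0.21 to -0.020). A median of 7 genes is the value of 1 gene, for the olaparib fold change Lamp1 (-0.12, edgeR adjusted p = 0.244). Lamp2 (0.71) and Laptm5 (0.73) rose. Over 31 other lysosomal membrane proteins the olaparib median was 0.0024, and over 28 other hydrolases and activators 0.13. A fall of lysosomal membrane proteins as a class was thus not seen in the wider list. Members are not replicates, so this is a description of 29 genes without a test.

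Of the 22 hydrolases, 11, 15, 15 and 14 exceeded the highest DMSO library in olaparib replicates 1 to 4, against 32.7%, 34.5%, 35.4% and 35.6% of all tested genes. In MNA replicates 1 to 4 the numbers were 12, 3, 11 and 11, against 37.3%, 16.5%, 37.5% and 37.9% of all tested genes. Summed over the class, the hydrolases reached 6887 ± 337 CPM in DMSO, 8101 ± 555 CPM with olaparib and 8296 ± 1031 CPM with MNA (mean ± SD, n = 4). The membrane proteins summed to 6891 ± 299, 7343 ± 448 and 6913 ± 67.5 CPM. These sums weigh the highest genes, Lipa and Lamp1 first, more than the medians do. Of the 7 membrane proteins, 2 had a higher mean with olaparib than in DMSO: Lamp2 (1695 against 1038 CPM) and Laptm5 (1265 against 763 CPM). Lamp1 itself was lower (2093 against 2268 CPM). Among the hydrolases, Lipa was at 2616 CPM with olaparib against 2124 CPM in DMSO, and Man2b1 at 1244 against 769 CPM.

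**Figure D4:**
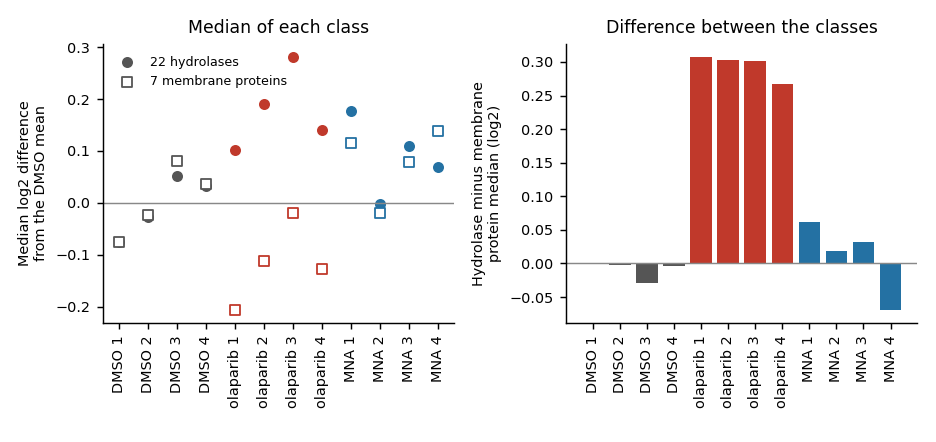
Left, median log2 difference from the DMSO mean over 22 hydrolases (filled circles) and 7 membrane proteins (open squares) in each library; right, the first minus the second, as bars from 0. The 4 olaparib bars stand between 0.27 and 0.31, and those of the other 8 libraries between -0.069 and 0.061.

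Set directly against each other, 5 genes were higher with olaparib than with MNA (Lamp2, Manba, Smpd1, Glb1 and Laptm5; 10.9% of all tested genes) and 4 were lower (Mcoln1, Hgsnat, Cd68 and Lamp1; 10.9%). No hydrolase was lower, although 2 had an unadjusted p under 0.05 in edgeR and DESeq2 called 1. Lamp2 (log2 fold change 0.71, SE 0.092, adjusted p = 0.000315), Manba (log2 fold change 0.44, SE 0.05, adjusted p = 0.000158), Smpd1 (log2 fold change 0.39, SE 0.076, adjusted p = 0.00453) and Mcoln1 (log2 fold change -0.27, SE 0.061, adjusted p = 0.00862) held whichever library was left out. In all 4 the olaparib and MNA libraries did not overlap. The difference of Glb1 (log2 fold change 0.43, SE 0.11, adjusted p = 0.0188) was lost without olaparib replicate 4 (adjusted p = 0.06), and that of Hgsnat (log2 fold change -0.61, SE 0.17, adjusted p = 0.0233) without any 1 of MNA replicates 1, 3 and 4 and olaparib replicates 1 and 2 (adjusted p = 0.0553 to 0.0656). Cd68 (log2 fold change -0.36, SE 0.10, adjusted p = 0.0294) was lost without any 1 of MNA replicate 3 and olaparib replicates 1, 2, 3 and 4 (adjusted p = 0.0547 to 0.0705). Laptm5 (log2 fold change 0.39, adjusted p = 0.0454) and Lamp1 (log2 fold change -0.22, adjusted p = 0.0488) were close to the threshold. They were lost without 10 of the 12 libraries (all but MNA replicates 1 and 2; adjusted p = 0.0572 to 0.102) and without 9 of them (all but DMSO replicate 3, olaparib replicate 3 and MNA replicate 2; adjusted p = 0.0511 to 0.112), each taken singly. The count higher with olaparib went down to 3 without olaparib replicate 4. The count lower went down to 1 without olaparib replicate 1, olaparib replicate 2 or MNA replicate 3, and to 2 without olaparib replicate 4, MNA replicate 1 or MNA replicate 4.

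Without MNA replicate 2, 10 genes were higher with olaparib than with MNA and 11 lower, where 21.5% and 20.7% of all tested genes were. The added genes were Gla (log2 fold change 0.70, SE 0.074, adjusted p = 6.61e-06), Galc (0.57, SE 0.13, adjusted p = 0.00277), Arsa (0.17, SE 0.058, adjusted p = 0.026), Gaa (0.24, SE 0.071, adjusted p = 0.015) and Grn (0.20, SE 0.074, adjusted p = 0.0443) on the higher side. On the lower side they were Hexa (-0.56, SE 0.087, adjusted p = 0.000168), Gm2a (-0.36, SE 0.12, adjusted p = 0.0272), Ids (-0.27, SE 0.10, adjusted p = 0.0377), Naglu (-0.27, SE 0.068, adjusted p = 0.00617), Fuca1 (-0.18, SE 0.066, adjusted p = 0.0415), Lipa (-0.20, SE 0.072, adjusted p = 0.0416) and Ppt1 (-0.25, SE 0.07, adjusted p = 0.0112). Gm2a, Ids and Fuca1 thus rose with both compounds and more with MNA in these 11 libraries. Man2b1, which also rose with both, did not pass in that fit (95% interval -0.40 to 0.01 without replicate 2). With the replicate number as a block as well, it passed as lower with olaparib than with MNA (adjusted p = 0.0317).

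**Figure D5:**
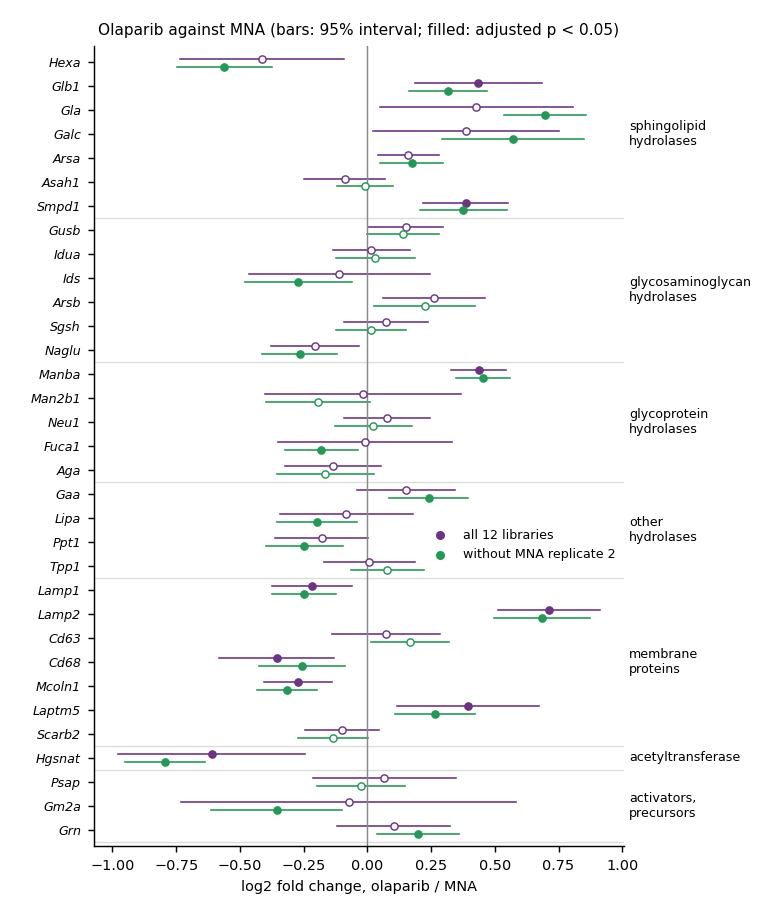
log2 fold change of olaparib over MNA for each gene, with 95% intervals, on all 12 libraries (purple) and without MNA replicate 2 (green); filled points passed the test. Lamp2, Manba and Smpd1 lie to the right and Mcoln1 and Hgsnat to the left in both, and 12 further genes are filled in green alone.

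On all 12 libraries 21 of the 33 genes passed in at least 1 of the 3 comparisons, and 12 passed in none (Arsa, Asah1, Cd63, Gaa, Grn, Gusb, Idua, Naglu, Psap, Scarb2, Sgsh and Tpp1). Without MNA replicate 2, Gusb, Idua and Scarb2 remained as the 3 that passed in none. The share of all tested genes that passed in at least 1 comparison was not counted. On all 12 libraries 14.3% of them rose and 12.8% fell with olaparib, 16.3% and 12.3% with MNA, and 10.9% each way between the compounds. Without MNA replicate 2 the shares were 22.5% and 21.2%, 27.2% and 26.9%, and 21.5% and 20.7%, in the same order. The counts are therefore not read as particular to these genes.

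Of 92 other lysosomal genes tested (cathepsins and proton pump subunits left aside), 17 rose and 10 fell with olaparib, 15 rose and 20 fell with MNA, and 10 were higher and 10 lower with olaparib than with MNA. These shares were 18.5% and 10.9%, 16.3% and 21.7%, and 10.9% and 10.9%, against the shares of all tested genes given above. The counts without MNA replicate 2 were 23 and 22 with olaparib, 26 and 32 with MNA, and 31 and 19 for olaparib against MNA. With olaparib, omitting any 1 of DMSO replicates 1 to 4 and olaparib replicates 2 to 4 left 7 to 11 higher and 5 to 9 lower. With MNA, omitting any 1 of DMSO replicates 2, 3 and 4 and MNA replicates 1, 3 and 4 left 3 to 9 higher and 0 to 9 lower. Among 28 other hydrolases and activators, 7 rose and 3 fell with olaparib (9 and 3 without MNA replicate 2). Man2b2, another lysosomal α-mannosidase, rose from 157 ± 8.46 CPM in DMSO to 237 ± 7.62 CPM with the drug (mean ± SD, n = 4; log2 fold change 0.59, adjusted p = 0.00439), and the carboxypeptidase Scpep1 fell from 497 ± 52.03 CPM in DMSO to 334 ± 15.98 CPM with the drug (log2 fold change -0.57, adjusted p = 0.0032). With MNA 4 rose and 3 fell in this list (11 and 7 without replicate 2), and Galns, the sulfatase of keratan sulfate, rose from 54.3 ± 1.97 CPM in DMSO to 75.2 ± 14.1 CPM with the compound (log2 fold change 0.47, adjusted p = 0.0168; 0.0581 without MNA replicate 3).

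Among 31 other membrane proteins, 5 rose and 5 fell with olaparib (16.1% each), and 7 rose and 10 fell with MNA (22.6% and 32.3%). These became 8 and 11, and 9 and 12, without MNA replicate 2. The transporter Mfsd1 fell with olaparib from 213 ± 16.4 CPM in DMSO to 144 ± 4.66 CPM with the drug (log2 fold change -0.57, adjusted p = 0.000348), and Tpcn1, a cation channel, rose from 55.6 ± 3.86 CPM in DMSO to 87.9 ± 7.05 CPM with the drug (log2 fold change 0.66, adjusted p = 0.00269). With MNA, the sialomucin Cd164 rose from 242 ± 12.6 CPM in DMSO to 628 ± 249 CPM with the compound (log2 fold change 1.38, adjusted p = 0.0142), and the peptide and histidine transporter Slc15a3 from 255 ± 4.07 CPM in DMSO to 575 ± 219.6 CPM with the compound (log2 fold change 1.17, adjusted p = 0.0142). Both calls held without any single library.

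Of 21 genes for delivery to the lysosome, 2 rose and 1 fell with olaparib (9.52% and 4.76%), and 3 rose and 3 fell with MNA (14.3% each). Without MNA replicate 2 the counts were 3 and 4, and 4 and 7. The shares of all tested genes on all 12 libraries were 14.3% and 12.8% with olaparib, and 16.3% and 12.3% with MNA, so these counts are not read as particular to the list. Sort1, the sorting receptor sortilin, rose with olaparib from 121 ± 13.7 CPM in DMSO to 205 ± 26.3 CPM with the drug (log2 fold change 0.76, adjusted p = 0.000914). Gnptab, which encodes the enzyme that starts the mannose 6-phosphate tag, rose with MNA from 68.8 ± 2.18 CPM in DMSO to 102 ± 21.1 CPM with the compound (log2 fold change 0.57, adjusted p = 0.0161), a call lost without either MNA replicate 3 or MNA replicate 4 (adjusted p of at most 0.0551). Vps18 fell with olaparib (log2 fold change -0.27, adjusted p = 0.029) and Gga2 with MNA (-0.37, adjusted p = 0.021). Both calls were lost without some single libraries (adjusted p of at most 0.0908 and 0.0682). Of 12 regulators, 3 rose and 1 fell with olaparib (25% and 8.33%), and 1 rose and 4 fell with MNA (8.33% and 33.3%). Without MNA replicate 2 the counts were 3 and 4, and 2 and 6. Tfec, a relative of TFEB, rose with olaparib from 25.8 ± 1.79 CPM in DMSO to 38.001 ± 3.95 CPM with the drug (log2 fold change 0.56, adjusted p = 0.00764), and Tfe3 from 135 ± 6.01 CPM in DMSO to 156 ± 7.35 CPM with the drug (log2 fold change 0.21, adjusted p = 0.021), the latter lost without any 1 of DMSO replicates 2, 3 and 4 and olaparib replicate 3 (adjusted p of at most 0.0735). Fnip2 fell with olaparib from 363 ± 84.2 CPM in DMSO to 239 ± 29.9 CPM with the drug (log2 fold change -0.60, adjusted p = 0.0192). That call was lost without any 1 of DMSO replicate 3 and olaparib replicates 1 and 4 (adjusted p of at most 0.0571). With MNA, Flcn, whose protein folliculin helps keep TFE3 in the cytoplasm, fell from 84.5 ± 6.56 CPM in DMSO to 63.9 ± 9.81 CPM with the compound (log2 fold change -0.40, adjusted p = 0.0185), lost without any 1 of DMSO replicate 3 and MNA replicates 1, 3 and 4 (adjusted p of at most 0.06). Rragd (log2 fold change -1.14, adjusted p = 0.0279) and Rptor (-0.31, adjusted p = 0.0245) also fell with MNA. Both calls were lost without some single libraries (adjusted p of at most 0.085 and 0.0784).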

How the data were processed

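RNA-seq was done with 12 libraries of bone marrow-derived macrophages, 4 each for DMSO, olaparib and MNA. The authors aligned stranded mRNA reads to GRCm38.p5 with STAR 2.5.2b, and deposited its raw counts per gene for each sample, with no normalisation. Which strand column they kept is not given in the sources used here. They used DESeq2 and R 3.6.0 for their own comparisons.

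The deposited counts were normalised by TMM, filtered with filterByExpr (minimum count 10, minimum total 15) and tested with the quasi-likelihood test of edgeR 4.0.16 in R 4.3.3, with all 12 libraries in 1 fit without a block. P-values were adjusted by the method of Benjamini and Hochberg over 12849 genes and called under 0.05. CPM are counts scaled to the TMM-adjusted library size, and RPKM are CPM per kilobase of exon. Groups came from the sample labels. Depth was 21146291 to 31446849 counts per library. The 33 genes and all other lists were chosen with earlier results of these data known. Values in every library are given for genes of the 33 that were called in any comparison and for the one with the highest CPM in each role, and of the other lysosomal lists at most the 3 called genes with the smallest p are named per list and comparison. The study's legends give 4 donor mice for the RNA-seq of these cells, without linking a mouse to a library. The labels do not say that replicates came from separate animals, so p-values measure the spread between these libraries.

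Alternatives were DESeq2 1.42.0, RLE and total count normalisation, other count filters, a replicate block, fits on 2 groups alone, a threshold of 0.01 and each library left out in turn. Deviations from the group mean correlated between equally numbered DMSO and olaparib libraries (r over genes 0.227, 0.172, 0.225 and 0.408). The numbers thus appear to pair these samples, by donor or by processing, which the labels do not state. The main fit has no block, and the block is given as an alternative where it changed a call. For DMSO and MNA (0.242, 0.114, -0.0094 and 0.277) the equally numbered library correlated best for every replicate but 3. For olaparib and MNA (0.070, 0.137, 0.131 and 0.392) it did so for every replicate but 1. The fit was tested on simulated data with known changes.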

Additional observations from a re-analysis of the deposited data

Results flagged for a closer look

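In 7 of 99 sets of 4 replicates (33 genes in 3 groups), 1 library lay apart from the other 3 by Dixon's test at its 95% critical value, where chance gives about 1 in 20. In 4 of the 7 this was MNA replicate 2. It read 85.7 CPM for Glb1 (other MNA libraries 123.0 to 126.7 CPM), 393 CPM for Gla (207 to 225 CPM), 416 CPM for Asah1 (334 to 341 CPM) and 20.3 CPM for Hgsnat (37.1 to 40.5 CPM). MNA replicate 1 stood above the other MNA libraries for Arsb, at 42.4 CPM (33.2 to 34.1 CPM), and for Lamp2, at 1156 CPM (976 to 1006 CPM). DMSO replicate 2 stood below the other DMSO libraries for Lipa, at 1900.5 CPM (2196 to 2201 CPM).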

How the results depend on the processing

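The counts of the 33 genes called (11 higher and 1 lower with olaparib, 9 and 2 with MNA, 5 and 4 for olaparib against MNA) moved with several choices, and the cause was not tested. DESeq2 and total count normalisation each called 3 lower with olaparib, where 1954 and 1703 of all tested genes were lower. With 2 groups alone in the fit, edgeR called 5 lower with olaparib, 0 higher and 0 lower with MNA (11 and 4 at an unadjusted p under 0.05, and 11 and 3 called by DESeq2 on 12 libraries), and 3 higher and 1 lower with olaparib than with MNA. In those fits 2886 of all tested genes rose and 2834 fell with olaparib, and 0 rose and 0 fell with MNA. For olaparib against MNA, 961 were higher and 847 lower. At an adjusted p under 0.01, 4 rose with olaparib, 0 rose and 0 fell with MNA, and 3 were higher and 1 lower with olaparib than with MNA. With the replicate block, 12 rose and 1 fell with olaparib, 10 rose and 3 fell with MNA, and 6 were higher and 4 lower with olaparib than with MNA. The block added Lipa with olaparib, Glb1 and Gaa with MNA and Arsb for olaparib against MNA, and changed no other call of the 33 genes. Equally numbered DMSO and olaparib libraries correlated best with each other in all 4 pairs. With the block and without MNA replicate 2, 7 fell with olaparib, 17 rose and 8 fell with MNA, and 12 were higher and 11 lower with olaparib than with MNA. Over all tested genes 2962 fell with olaparib, and 3618 rose and 3547 fell with MNA in that fit. For olaparib against MNA, 2952 were higher and 2790 lower. Compared with the fit that only left out MNA replicate 2, the block added Arsb as higher with MNA (adjusted p = 0.0287). For olaparib against MNA it added Arsb (adjusted p = 0.0404) and Cd63 (adjusted p = 0.0338) as higher and Man2b1 as lower (adjusted p = 0.0317). Lipa no longer passed there (adjusted p = 0.052, against 0.0416 without the block). The calls it added with olaparib against DMSO are given above.

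When 1 library was left out in turn, the counts ran from 7 to 15 higher and 1 to 4 lower with olaparib, 0 to 16 and 0 to 8 with MNA, and 3 to 10 and 1 to 11 for olaparib against MNA. Over all tested genes the same fits ran from 1231 to 2935 higher and 921 to 2759 lower with olaparib. They ran from 408 to 3543 and 55 to 3499 with MNA, and 987 to 2805 and 916 to 2698 for olaparib against MNA. The hydrolase median minus the membrane protein median ran from 0.28 to 0.30 with olaparib, 0.029 to 0.094 with MNA and 0.12 to 0.18 for olaparib against MNA. For the other lysosomal genes the ranges were 7 to 23 higher and 5 to 22 lower with olaparib, 3 to 26 and 0 to 32 with MNA, and 5 to 31 and 6 to 19 for olaparib against MNA. Their counts at an adjusted p under 0.01 were 6 and 4, 0 and 0, and 4 and 4. With 2 groups alone, 23 were lower with olaparib, 0 and 0 passed with MNA (20 and 22 at an unadjusted p under 0.05 in edgeR), and 5 and 4 passed for olaparib against MNA. With the block and without MNA replicate 2, 23 were lower with olaparib, 27 were higher and 35 lower with MNA, and 33 and 24 passed for olaparib against MNA.

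Sign changes were limited to log2 fold changes that lay between -0.11 and 0.066 on all 12 libraries and had not passed the test. On the log2 scale, total count normalisation gave 0.011 for Lamp2 with MNA, -0.011 for Idua and -0.022 for Tpp1 with olaparib against MNA, and 2 groups alone gave 0.0046 for Lamp2 and -0.0015 for Tpp1. For olaparib against MNA the replicate block gave 0.0087 for Man2b1, 0.019 for Fuca1 and 0.031 for Gm2a, and -0.0084 for Psap without MNA replicate 2. With 1 library left out in turn, the values for olaparib against MNA ran from -0.19 to 0.064 for Man2b1, -0.18 to 0.066 for Fuca1, -0.36 to 0.085 for Gm2a, -0.27 to 0.0079 for Ids, -0.0086 to 0.035 for Idua, -0.041 to 0.078 for Tpp1 and -0.026 to 0.12 for Psap. They ran from -0.041 to 0.0020 for Gusb and -0.062 to 0.020 for Lamp2 with MNA, and from -0.069 to 0.023 for Naglu and -0.085 to 0.011 for Scarb2 with olaparib.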
